A study of Mus musculus with 6 samples.

Results

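The 10 genes described here are the insulin-like growth factor (IGF) ligands Igf1 and Igf2, the receptors Igf1r and Igf2r, and the binding proteins Igfbp2, Igfbp3, Igfbp4, Igfbp5, Igfbp6 and Igfbp7. They were picked by symbol from a table of 24197 genes, with their difference between Prdm16 and puro libraries already known. That same contrast chose them, so their values are given as a description and carry no test. The libraries held polyadenylated RNA of cultured stromal-vascular cells, the fraction of adipose tissue that holds progenitors, fibroblasts, vascular and immune cells. The cells came from the inguinal fat of C57BL/6 mice and were given either a Prdm16 retrovirus or a control (puro) retrovirus, with 3 libraries in each group. All cells grew in a standard growth medium, and the labels give neither the age nor the sex of the mice. Prdm16 encodes a zinc-finger regulator of transcription that acts in brown and beige fat, and here a retrovirus forced its expression. The labels do not say that replicates came from separate animals or cultures. Every p-value therefore covers the spread among these 6 libraries alone, and that spread may be technical. A difference between the cultures of the groups was not separated from the virus. The words rose and fell mean higher and lower in Prdm16 libraries than in puro libraries.

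IGF1 and IGF2 are secreted peptides that signal growth and survival through the IGF1 receptor, a tyrosine kinase that uses IRS adaptors, PI3K and AKT. The IGF2 receptor has no kinase: it takes up IGF2 for breakdown and carries mannose 6-phosphate-tagged enzymes to lysosomes. Most IGF in body fluids is held by binding proteins, which keep the ligands from the receptor until proteases such as PAPP-A cut them. In adipose tissue Igf1 is made locally under growth hormone, while Igf2 is an imprinted gene that is active in the mouse fetus and largely silenced after birth.

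The libraries held 34349660, 28169059 and 32678897 counts in the Prdm16 group and 31866630, 35798201 and 34303737 in the puro group. Levels are CPM, the count relative to the scaled library total, and a count of 0 leaves room for up to 3 counts, or 0.0852 to 0.104 CPM. Intervals and limits cover counting error only. Prdm16 itself had 98437, 72525 and 89054 counts in Prdm16 libraries, against 14, 22 and 25 in puro libraries, so each library matched its label. Among markers of the stromal-vascular fraction, the progenitor and fibroblast list summed to 1350 to 1410 CPM in Prdm16 libraries and 1130 to 1170 CPM in puro libraries, with 4 and 5 of 9 markers above 1 CPM. Ly6a carried that sum, at 988.1 CPM in Prdm16 libraries and 376.1 CPM in puro libraries, while 4 of the 7 markers tested were lower and 2 higher. Pdgfrb averaged 195.5 CPM in Prdm16 libraries and 554.6 CPM in puro libraries, Cd34 0.952 and 16.4 CPM, and Pdgfra 188.4 and 199.1 CPM. The adipocyte list summed to 607 to 712 CPM in Prdm16 libraries and 190 to 206 CPM in puro libraries. Fabp4 carried most of that sum, at 551.3 and 115.3 CPM, and of 5 markers tested 4 were higher and Lipe was lower. The mesothelium list summed to 96.4 to 102 and 7.18 to 7.58 CPM. Msln carried most of it, at 91.2 and 6.30 CPM, and of 3 markers tested 2 were higher and Wt1 was lower. The mammary epithelium list summed to 26.7 to 28.2 and 0.287 to 0.358 CPM. Of its 8 markers the 4 tested were higher, led by Krt18 at 13.3 and 0.0684 CPM. Each of the 4 had at most 5 counts in any puro library. The filter on low counts thus kept them through Prdm16 libraries alone. They could only be called higher, so nothing is read from that count. Krt8, Krt14, Krt5 and Elf5 stayed below 1 CPM in both groups. The pericyte list summed to 264 to 285 CPM in Prdm16 libraries and 156 to 179 CPM in puro libraries, and the endothelial list to 9.37 to 12.2 and 3.32 to 3.78 CPM. These lists also split: Notch3 and Mcam of pericytes and Tek of endothelium were higher with Prdm16, and Cspg4, Rgs5 and Vwf were lower. The Schwann cell list summed to 3.03 to 3.35 CPM in Prdm16 libraries and 7.71 to 8.13 CPM in puro libraries, and of 4 markers tested 1 was higher and 3 were lower. The skeletal muscle list summed to 3.83 to 4.82 and 7.48 to 9.09 CPM, and the macrophage list to 4.7 to 4.94 and 4.97 to 6.28 CPM. Emr1, C1qa, C1qb and C1qc of macrophages, Cdh5 and Cldn5 of endothelium, Myod1, Myf5, Myog and Ckm of muscle and Sox10 of Schwann cells were at 0 in every library. The part of these marker differences in the IGF values was not tested, and in bulk RNA fewer cells of a type and less RNA per cell cannot be told apart.

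The sequences just upstream of the ligands and of the binding proteins Igfbp3 and Igfbp4 are shown because the ligands differed in opposite directions and Igfbp4 and Igfbp3 were among the binding proteins that stood furthest apart, in opposite directions. All 10 genes were found in the RefSeq promoter table of GRCm38.p6, with 14 transcription starts. Each line gives the 100 bases before a start, 5′ to 3′ on the gene's strand, and capitals mark a TATA-like motif within the last 50 bases. Igf2 has 4 starts in the table, in the order of transcription along the chromosome.
Igf1, chr10:87861011-87861110, plus strand: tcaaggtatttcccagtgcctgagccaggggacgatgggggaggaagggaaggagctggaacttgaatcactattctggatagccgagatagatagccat
Igf2 start 1, chr7:142666817-142666916, minus strand: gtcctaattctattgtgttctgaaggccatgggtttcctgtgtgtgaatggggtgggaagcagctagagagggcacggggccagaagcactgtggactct
Igf2 start 2, chr7:142661272-142661371, minus strand: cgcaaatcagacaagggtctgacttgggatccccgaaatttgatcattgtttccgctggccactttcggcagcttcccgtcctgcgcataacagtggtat
Igf2 start 3, chr7:142658805-142658904, minus strand: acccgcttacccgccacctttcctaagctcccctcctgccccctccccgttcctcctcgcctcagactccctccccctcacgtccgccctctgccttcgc
Igf2 start 4, chr7:142657497-142657596, minus strand: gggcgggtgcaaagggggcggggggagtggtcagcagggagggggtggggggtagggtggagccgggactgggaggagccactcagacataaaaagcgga
Igfbp3, chr11:7213924-7214023, minus strand: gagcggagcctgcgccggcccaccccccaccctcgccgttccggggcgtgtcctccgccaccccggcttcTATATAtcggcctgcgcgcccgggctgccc
Igfbp4, chr11:99041144-99041243, plus strand: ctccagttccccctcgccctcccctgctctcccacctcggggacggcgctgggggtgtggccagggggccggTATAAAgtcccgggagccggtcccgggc

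The TATA-like motifs searched for on either strand were TATAAA, its variant TATATA and the related word TTTAAA, which can overlap each other. At least 1 of them lay in the last 50 bases of 6.73% of the 32851 starts in the table. Of the 14 starts, 3 held one: that of Igfbp3 with TATATA, that of Igfbp4 with TATAAA and that of Igfbp5 with TTTAAA. A match describes letters and not a site. The upstream regions also differed in base composition over 250 bases. The Igf1 region had 52.8% G and C, close to the median of 52.4% over all starts, with CpG at 0.305 of the number its base composition predicts. The third Igf2 start had 68.8% G and C and a CpG ratio of 0.881, while the first had 50.8% and 0.0637. Igfbp3 and Igfbp4 lay at 73.2% and 69.2% G and C with CpG ratios of 0.958 and 0.748, and the median CpG ratio over all starts was 0.373. The letters GGGCGG, on either strand, occurred in the 250 bases of 6 of the 14 starts, among them the third and the fourth of Igf2, and in 32.7% of all starts. The count table holds 1 value per gene, so the use of each Igf2 start was not analysed here.

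Igf2 RNA was plainly detected with Prdm16 and near the detection limit without it, while Igf1 RNA was several-fold lower with Prdm16. Igf2 had 73.3, 69.8 and 70.1 CPM in Prdm16 libraries, against 0.129, 0.487 and 0.179 CPM in puro libraries. These values rest on 2581, 2021 and 2341 counts in Prdm16 libraries and on 4, 17 and 6 in puro libraries, so all Prdm16 libraries lay far above a puro group close to the limit of detection. The log2 fold change was 8.01 ± 0.15 (Prdm16 over puro, SE, n = 3 each), and the means were 71.1 ± 1.93 CPM in Prdm16 libraries and 0.265 ± 0.194 CPM in puro libraries (SD). Of the 27 puro counts, 17 lay in puro library 2, and the log2 fold change was 8.81 without it.

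Igf1 had 15.8, 14.8 and 16.3 CPM in Prdm16 libraries, against 92.5, 89.5 and 88.3 CPM in puro libraries. The groups stood far apart, with little spread inside either. Means were 15.6 ± 0.783 CPM in Prdm16 libraries and 90.1 ± 2.17 CPM in puro libraries (SD, n = 3), a log2 fold change of −2.53 ± 0.05, which is 5.77-fold lower with Prdm16. Unlike Igf2, Igf1 stayed well measured in both groups, with at least 427 counts in each Prdm16 library.

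Set per kb of the longest annotated transcript, Igf2 made up 87.4%, 87.6% and 86.6% of the summed ligand level in Prdm16 libraries, against 0.208%, 0.806% and 0.301% in puro libraries. The summed ligand level itself was 17.3 ± 0.458 CPM per kb in Prdm16 libraries and 12.8 ± 0.295 CPM per kb in puro libraries (SD, n = 3). The makeup of the ligand RNA thus differed far more than its sum. The log2 ratio of Igf1 to Igf2 per length averaged −2.77 ± 0.07 in Prdm16 libraries and 8.07 ± 1.02 in puro libraries, a difference of −10.84 that ranged from −11.4 to −10.42 as each library was left out.

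**Figure D1:**
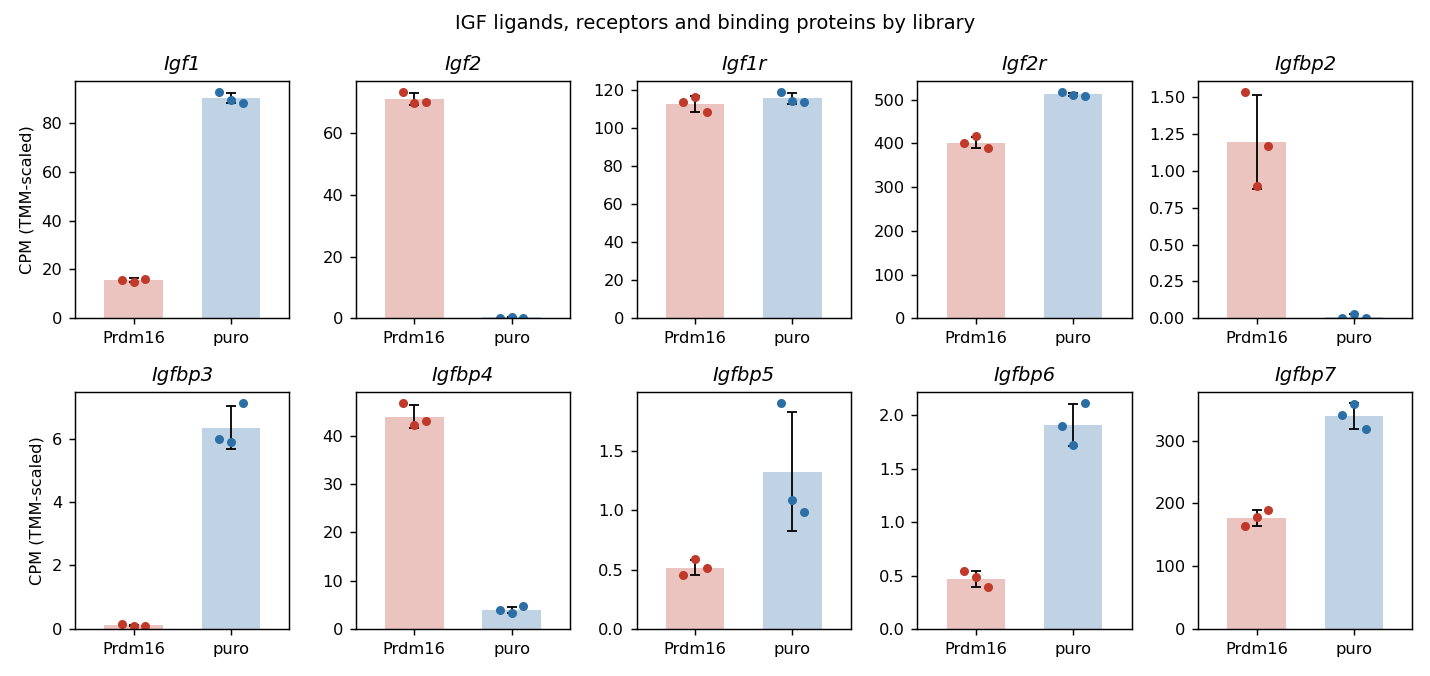
Level of each of the 10 IGF genes (CPM, linear axes that start at 0), Prdm16 left of puro; bars are means, error bars the SD of 3 libraries and points the libraries. Igf2, Igfbp2 and Igfbp4 lie higher in the Prdm16 libraries, Igf1r overlaps between the groups, and the other genes lie lower in the Prdm16 libraries.

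The receptors differed much less than the ligands. Igf1r, the signalling receptor, had 113.9, 116.5 and 108.4 CPM in Prdm16 libraries and 118.9, 114.5 and 113.7 CPM in puro libraries. The groups overlapped, and the log2 fold change was −0.04 ± 0.04. Igf2r, the clearance receptor, had 400.1, 416 and 390 CPM in Prdm16 libraries, against 517, 510 and 510 CPM in puro libraries. All Prdm16 libraries lay below all puro libraries, with a log2 fold change of −0.35 ± 0.03, or −0.40 with chromosome medians removed. Per length, Igf2r stood 4.57 ± 0.0545 times above Igf1r in Prdm16 libraries and 5.68 ± 0.0911 times above it in puro libraries (SD, n = 3). This ratio depends on the length used: it was 6.42 and 7.99 with the union of exons and 8.86 and 11.01 with median transcript lengths, in Prdm16 and puro libraries. Summed ligand over Igf1r was 1.75 ± 0.0825 per length in Prdm16 libraries and 1.27 ± 0.00802 in puro libraries.

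The binding proteins differed in both directions: Igfbp4 and Igfbp2 were higher with Prdm16, and Igfbp3, Igfbp5, Igfbp6 and Igfbp7 were lower. Igfbp4, which binds IGFs and is a substrate of PAPP-A, had 46.8, 42.1 and 43.0 CPM in Prdm16 libraries, against 3.84, 3.35 and 4.68 CPM in puro libraries. No library of one group came near the other. Means were 44.0 ± 2.46 CPM in Prdm16 libraries and 3.96 ± 0.670 CPM in puro libraries (SD, n = 3), a log2 fold change of 3.48 ± 0.10 and 11.1-fold higher. Igfbp2, a binding protein that prefers IGF2, had 54, 26 and 39 counts in Prdm16 libraries, against 0, 1 and 0 counts in puro libraries. Its Prdm16 mean was low, near 1 CPM, and its fold rests on that 1 puro count. Without puro library 2, which held it, the puro group had none. The ratio of its summed counts, scaled by library, was 121 with an exact 95% counting interval of 21.4 to 4832.

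Igfbp3, the main carrier of IGFs in serum, stood the other way. It had 5, 3 and 3 counts in Prdm16 libraries, against 186, 206 and 239 counts in puro libraries. That is 0.142, 0.104 and 0.0899 CPM in Prdm16 libraries, close to the 3-count limit, and 6.00, 5.91 and 7.12 CPM in puro libraries. The log2 fold change was −5.77 ± 0.22, which is 56.7-fold lower with Prdm16. Igfbp6, whose preferred ligand is IGF2, had 0.540, 0.484 and 0.389 CPM in Prdm16 libraries, against 1.90, 1.72 and 2.12 CPM in puro libraries. These groups did not overlap, and the log2 fold change was −2.01 ± 0.20. The median log2 fold change of all genes on its chromosome, 15, was −0.38, and with chromosome medians removed Igfbp6 stood at −1.64. Chromosome medians ranged from −0.39 on chromosome 18 to 0.49 on chromosome 14. Whether these shifts came with the virus or with a difference between cultures was not tested.

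Igfbp5, a binding protein that attaches to extracellular matrix, had 0.454, 0.587 and 0.509 CPM in Prdm16 libraries, against 1.90, 1.09 and 0.983 CPM in puro libraries. Puro library 1 was the highest, and all Prdm16 libraries lay below the lowest puro library. Its log2 fold change was −1.35 ± 0.30, and it ranged from −1.52 to −1.01 as each library was left out. Igfbp7, an IGFBP-related protein that binds IGFs only weakly, had 164, 178 and 189 CPM in Prdm16 libraries, against 341, 359 and 318 CPM in puro libraries. The groups did not overlap, with a log2 fold change of −0.94 ± 0.06. With chromosome medians removed Igfbp7 stood at −1.12. Igfbp1, the remaining classical binding protein and no member of the 10, had 0 counts in every library.

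**Figure D2:**
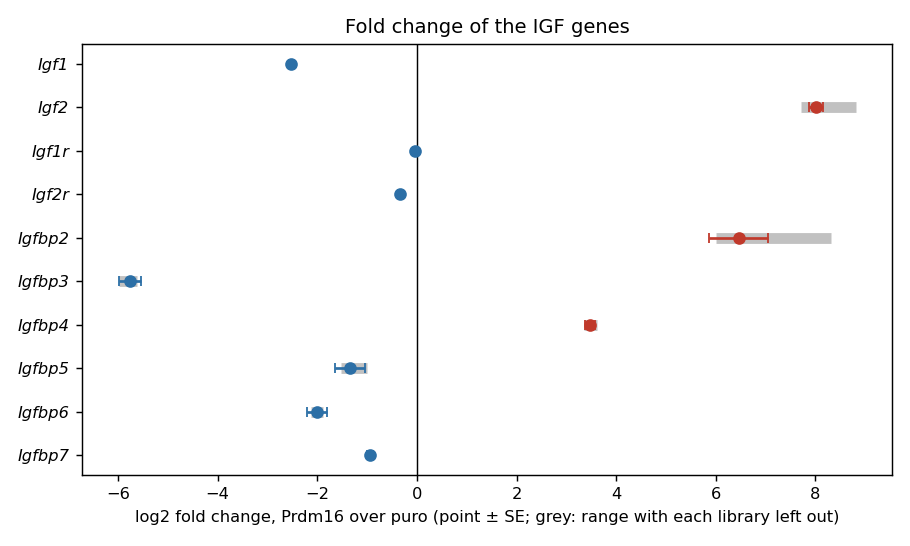
Log2 fold change, Prdm16 over puro, of the 10 IGF genes; points carry the SE (n = 3 libraries each) and grey bands the range as each library was left out. Igf2 at 8.01 and Igfbp3 at −5.77 are far from 0, and Igf1r at −0.04 is near it; the Igfbp2 value rests on 1 puro count.

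All 10 genes passed the filter on low counts. Of the 10, 3 were higher, 6 were lower and 1, Igf1r, was not called at an adjusted p of 0.05, beside 37.5% higher and 38% lower of the 13805 genes tested. Groups did not overlap for 9 of the 10, beside 77.6% of all genes. Of the 10, 7 were called with a log2 fold change of 1 or larger in size, beside 21.8% of all genes, and 4 with one of 3 or larger, beside 5.86%. The median log2 fold change was −0.64 over the 10 and −0.01 over all genes. The choice of the members used these differences, so nothing is read from the shares.

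Per length, the order of levels differed between the groups. In Prdm16 libraries Igfbp7 led with 147.5 CPM per kb, followed by Igf2r with 45.2, Igf2 with 15.1, Igfbp4 with 11.5 and Igf1r with 9.90 CPM per kb. Below these stood Igf1 with 2.22, Igfbp2 with 0.918, Igfbp6 with 0.424, Igfbp5 with 0.0861 and Igfbp3 with 0.0462 CPM per kb. In puro libraries Igfbp7 led with 282.8 CPM per kb, followed by Igf2r with 57.6, Igf1 with 12.8 and Igf1r with 10.1 CPM per kb. Igfbp3 with 2.62, Igfbp6 with 1.72, Igfbp4 with 1.03, Igfbp5 with 0.221, Igf2 with 0.0561 and Igfbp2 with 0.00731 CPM per kb came after. Neighbours in either order did not overlap between libraries with the longest transcript as the length. The transcript behind the reads is not known, and with the union of exons Igfbp3 and Igfbp6 overlapped in puro libraries. With the median transcript length Igf2r stood above Igfbp7, Igfbp4 overlapped with Igf1r in Prdm16 libraries and Igf2 overlapped with Igfbp5 in puro libraries.

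**Figure D3:**
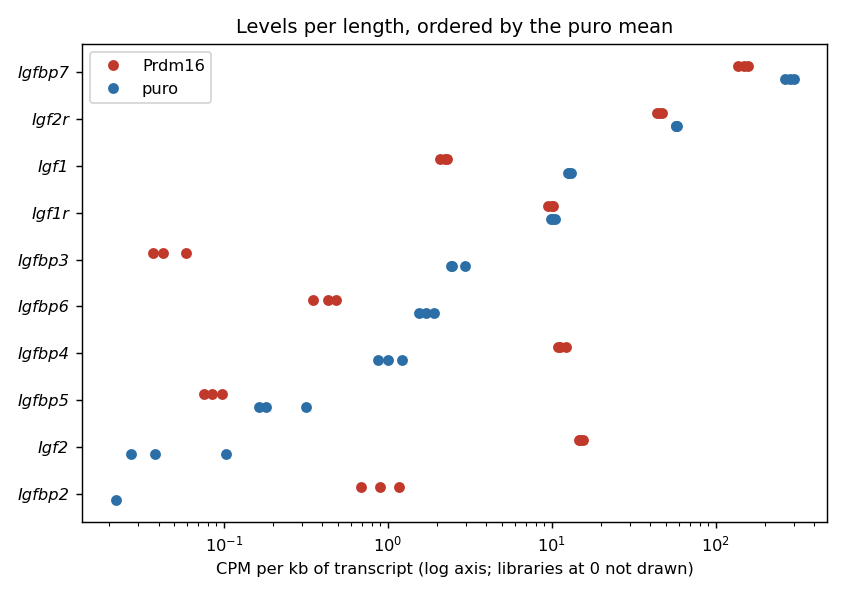
Level of each IGF gene in CPM per kb of its longest transcript (log axis), one point per library, Prdm16 above puro, with genes ordered by the puro mean; libraries at 0 are not drawn. Igfbp7 is the most abundant in both groups, and the places of Igf1 and Igf2 differ between them.

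The summed level of the 6 binding proteins was 160.5 ± 9.60 CPM per kb in Prdm16 libraries and 288.4 ± 16.4 CPM per kb in puro libraries (SD, n = 3). Igfbp7 made up most of this sum, with 91.9% ± 1.03 of it in Prdm16 libraries and 98.05% ± 0.319 in puro libraries. With median transcript lengths its share was 71.97% in Prdm16 libraries and 96.6% in puro libraries. Without Igfbp7 the sum lay the other way, at 12.95 ± 0.924 CPM per kb in Prdm16 libraries and 5.60 ± 0.588 CPM per kb in puro libraries. With median transcript lengths it was 59.4 CPM per kb in Prdm16 libraries and 10.2 CPM per kb in puro libraries. Among these 5, Igfbp4 took 88.7% ± 1.32 in Prdm16 libraries and 18.4% ± 1.17 in puro libraries. Igfbp3 took 0.354% ± 0.0622 in Prdm16 libraries and 46.8% ± 1.63 in puro libraries, and Igfbp6 3.26% ± 0.421 and 30.7% ± 0.305. With median transcript lengths Igfbp4 held the largest share in both groups, 97.0% in Prdm16 libraries and 50.4% in puro libraries, and Igfbp3 held 0.0906% and 30.1%. Igfbp2 took 7.03% ± 1.39 in Prdm16 libraries and 0.144% ± 0.250 in puro libraries, and Igfbp5 0.670% ± 0.129 and 3.99% ± 1.6.

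**Figure D4:**
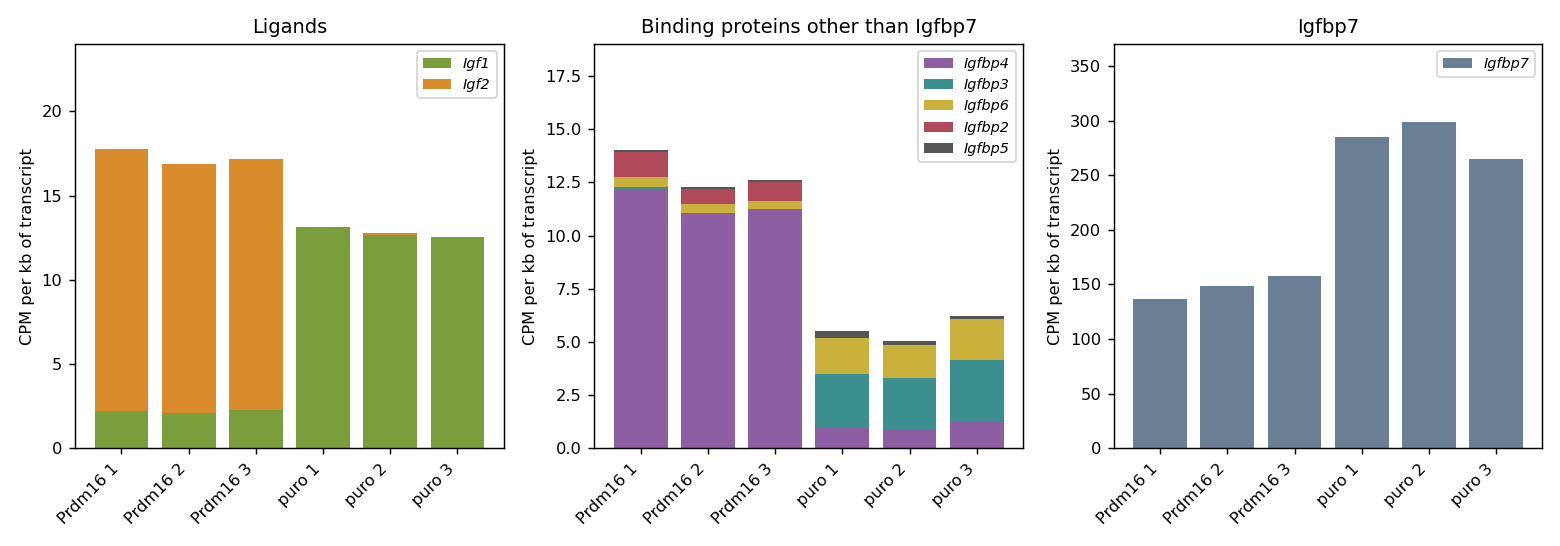
Stacked levels of the ligands, of the binding proteins other than Igfbp7, and of Igfbp7 in CPM per kb of the longest transcript, 1 bar per library, Prdm16 left of puro. Igf2 holds 87.2% of the ligand level in Prdm16 libraries and 0.439% in puro libraries; Igfbp4 holds 88.7% and 18.4% of the binding protein level without Igfbp7, with Prdm16 and with puro.

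The rest of the pathway was read from 9 lists with 85 genes, of which 75 could be tested with edgeR's quasi-likelihood test and Benjamini-Hochberg adjustment over 13805 genes. Of the 75, 25 were higher, 35 were lower and 15 did not pass, so 80% were called, beside 75.6% of all genes. Called genes with a log2 fold change of 1 or larger in size were 12 of the 75 or 16%, beside 21.8% of all genes. The median was −0.07, and −0.01 over all genes. The lists were chosen with earlier results of these data known. Nothing is therefore read from these shares or from those of each list below, and the p-values are no independent test.

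The proteases that free IGFs from binding proteins, and their inhibitors, held large changes in both directions. Of 7 tested, 3 rose, 4 fell and 5 had a log2 fold change of 1 or larger in size, with a list median of −0.13. That is 100% called and 71.4% of that size, beside 75.6% and 21.8% of all genes. The list was chosen with earlier results known, so these shares only describe it. Pappa, which cuts IGFBP4, rose to 46.3 ± 4.15 CPM in Prdm16 libraries, against 16.0 ± 0.515 CPM in puro libraries (log2 fold change 1.53 ± 0.07, adjusted p = 3.93e-09). Its relative Pappa2, which cuts IGFBP3 and IGFBP5, fell to 0.655 ± 0.0552 CPM in Prdm16 libraries, against 8.67 ± 1.14 CPM in puro libraries (−3.72 ± 0.16, adjusted p = 2.96e-09). The stanniocalcins, inhibitors of these proteases, also parted. Stc2 rose to 5.88 ± 0.770 CPM in Prdm16 libraries, against 0.141 ± 0.112 CPM in puro libraries (5.35 ± 0.28), and stood at 6.20 without puro library 3. It had 3, 2 and 9 counts in puro libraries, so the filter kept it through Prdm16 libraries alone. Stc2 could only be called higher, and no p-value is given. Stc1 fell to 4.55 ± 0.288 CPM in Prdm16 libraries, against 15.8 ± 0.869 CPM in puro libraries (−1.80 ± 0.08, adjusted p = 5.14e-09). It stood at −2.29 with chromosome medians removed. Adam12, a membrane protease reported to cut IGFBP3 and IGFBP5, fell by 3.71 on the log2 scale (SE 0.17, adjusted p = 4.46e-09). The rest of the list, named after values were seen, was the secreted protease Htra1, which rose by 0.74 ± 0.05 (adjusted p = 1.01e-07), and the membrane protease Adam9, which fell by 0.13 ± 0.03 (adjusted p = 0.00409).

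Of the RNA-binding proteins that hold Igf2 mRNA, Igf2bp1 had 51.2 ± 1.37 CPM in Prdm16 libraries and 49.96 ± 1.59 CPM in puro libraries and did not pass (0.04 ± 0.04, adjusted p = 0.439). Igf2bp2 fell by 0.34 ± 0.03 (adjusted p = 3.67e-06; −0.18 with chromosome medians removed) and Igf2bp3 by 0.19 ± 0.05 (adjusted p = 0.00297). Lin28b, a fetal RNA-binding protein that blocks let-7, had 157 counts over the Prdm16 group and 0 over the puro group. That is 53.4-fold higher with 3 counts put in the puro group, and the lower exact 95% counting limit was 42.9-fold. The filter kept Lin28b through Prdm16 libraries alone. It could only be called higher, so no p-value is given. In all, 1 of the 5 tested genes of this list rose, 3 fell and 1 did not pass, with a median of −0.19. So 80% were called, beside 75.6% of all genes. Airn, the antisense RNA in Igf2r, was among those that fell (−0.30 ± 0.10, adjusted p = 0.0141), and its adjusted p was 0.0981 in DESeq2 and 0.0648 without Prdm16 library 3. It overlaps Igf2r on the other strand, and whether counting used the strand is not given, so their reads may be mixed.

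The neighbours of Igf2 on chromosome 7 were read for the same region, and apart from H19 and Ins2 they were named after their values were seen. H19, the imprinted non-coding RNA that in mice is expressed from the other parental copy, had 0, 1 and 0 counts in Prdm16 libraries and 0, 1 and 0 in puro libraries. Ins2 had 1 count in each Prdm16 library and 0 in each puro library. Igf2os, which overlaps Igf2 on the other strand, had 16, 7 and 7 counts in Prdm16 libraries, against 0 in each puro library, and without a known strand setting its reads cannot be told apart from those of Igf2. Among genes farther along, Lsp1 fell by 1.73 ± 0.10 (adjusted p = 2.78e-08), Mrpl23 fell by 0.78 ± 0.18 (adjusted p = 0.00234) and Cd81 rose by 0.54 ± 0.04 (adjusted p = 3.42e-07). R74862 did not pass (−0.48 ± 0.22, adjusted p = 0.0705). Of all genes 75.6% were called. Among imprinted genes of the region, Slc22a18 had 29, 25 and 25 counts in Prdm16 libraries, against 1, 1 and 3 in puro libraries. Its log2 fold change was 3.91 ± 0.39. The ratio of its summed counts, scaled by library, was 16.1 with an exact 95% counting interval of 6.62 to 50.98. The filter kept Slc22a18 through Prdm16 libraries alone, so it could only be called higher and no p-value is given. Phlda2 had 10, 8 and 7 counts and Ascl2 5, 2 and 3 counts in Prdm16 libraries, against 0 in each puro library, and Cdkn1c had 0 in every library. On chromosome 1, Igfbp2 and Igfbp5 are adjacent and stood on opposite sides, and on chromosome 11 Igfbp1 lies next to Igfbp3.

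Insulin relatives and carriers gave little signal. Insr, the insulin receptor, had 91.3 ± 5.53 CPM in Prdm16 libraries and 94.8 ± 2.14 CPM in puro libraries and did not pass (−0.06 ± 0.05, adjusted p = 0.313). With chromosome medians removed it stood at −0.17 with an adjusted p of 0.00699. Insrr, an insulin receptor relative, fell by 0.74 ± 0.22 (adjusted p = 0.00936, and 0.0673 in DESeq2). Igfals, the acid-labile subunit of the serum complex, had 13 counts over the Prdm16 group and 19 over the puro group, Igfbpl1 had 16 and 7, and Ins1 had none in either group. Of the 7 genes 2 could be tested, with 1 lower and 1 not passing and a median of −0.40. That is 50% called, beside 75.6% of all genes.

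Downstream of the receptor most differences were small. Of 22 tested adaptors and PI3K-AKT genes, 10 rose, 6 fell and 6 did not pass, with a median of 0.03. So 72.7% were called, beside 75.6% of all genes. Irs1, the adaptor that couples the receptor to PI3K, fell to 67.3 ± 2.36 CPM in Prdm16 libraries, against 163.7 ± 3.72 CPM in puro libraries (−1.28 ± 0.04, adjusted p = 2.27e-10). Irs2 stood at 34.2 ± 3.75 CPM in Prdm16 libraries and 27.7 ± 4.23 CPM in puro libraries (0.30 ± 0.10, adjusted p = 0.0206). The Irs2 call was lost without Prdm16 library 1 (adjusted p = 0.0823), puro library 1 (0.0777) or puro library 2 (0.0828) and with chromosome medians removed (0.131). Grb10, an adaptor that restrains the receptor, fell by 0.33 ± 0.03 (adjusted p = 3.96e-06). Ptpn1, a phosphatase of the insulin receptor, rose by 0.45 ± 0.05 (adjusted p = 4.36e-06).

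Among FOXO and mTOR genes, 3 of 12 rose, 6 fell and 3 did not pass, with a median of −0.11. So 75% were called, beside 75.6% of all genes, and none had a log2 fold change of 1 or more in size. Rheb, the activator of mTORC1, rose by 0.49 ± 0.03 (adjusted p = 2e-07), or 0.30 with chromosome medians removed, and Eif4ebp1, a translation repressor that mTORC1 inactivates, fell by 0.89 ± 0.07 (adjusted p = 4.47e-07). Foxo1 and Foxo3, transcription factors that AKT keeps out of the nucleus, fell by 0.41 ± 0.04 (adjusted p = 1.62e-06) and by 0.42 ± 0.09 (adjusted p = 0.00142), and Foxo1 stood at −0.21 with chromosome medians removed.

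The growth hormone axis, which drives Igf1 in liver and fat, held 5 genes that rose and 3 that fell of 8. That is 100% called, beside 75.6% of all genes, with a list median of 0.35. Ghr, the growth hormone receptor, fell to 144.4 ± 5.56 CPM in Prdm16 libraries, against 307.7 ± 5.65 CPM in puro libraries (−1.09 ± 0.04, adjusted p = 4.62e-10), and stood at −0.72 with chromosome medians removed. Its kinase Jak2 rose by 0.93 ± 0.04 (adjusted p = 5.52e-09), or 0.54 with chromosome medians removed, and Socs2, a feedback inhibitor, rose by 0.50 ± 0.04 (adjusted p = 7.98e-07). The prolactin receptor Prlr rose to 5.45 ± 0.829 CPM in Prdm16 libraries, against 0.778 ± 0.190 CPM in puro libraries (2.80 ± 0.19, adjusted p = 1.27e-07). It stood at 3.175 with chromosome medians removed.

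The list for mannose 6-phosphate sorting, the second task of Igf2r, split into 2 that rose, 5 that fell and 1 that did not pass. It also counted the urokinase receptor gene Plaur. Plaur fell by 0.90 ± 0.09 (adjusted p = 4.18e-06), the largest difference of the list. Called genes made up 87.5%, beside 75.6% of all genes, with a list median of −0.37. M6pr, the smaller mannose 6-phosphate receptor, rose by 0.39 ± 0.04 (adjusted p = 2.95e-06) and Gnptab, which makes the tag, rose by 0.50 ± 0.04 (adjusted p = 7.84e-07). Gnptg, the gamma subunit of the same enzyme, fell by 0.58 ± 0.05 (adjusted p = 2e-06), and the sorting adaptor Gga2 fell by 0.64 ± 0.04 (adjusted p = 4.49e-08).

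Cell-surface partners of binding proteins held none that rose, 6 that fell and 2 that did not pass of 8, with a median of −0.75. That is 75% called, beside 75.6% of all genes, and 38% of all genes were lower. Cd93, a membrane lectin reported as a receptor of IGFBP7, fell to 1.92 ± 0.164 CPM in Prdm16 libraries, against 30.1 ± 1.81 CPM in puro libraries (−3.96 ± 0.09, adjusted p = 1.64e-11). Lrp1, a receptor for IGFBP3, fell by 0.72 ± 0.04 (adjusted p = 2.48e-08). The integrin subunits Itga5 and Itgb3 fell by 0.77 ± 0.03 (adjusted p = 3.84e-09) and by 0.96 ± 0.07 (adjusted p = 1.38e-07), and Itga5 stood at −0.40 with chromosome medians removed. Ptprz1, a phosphatase that binds IGFBP2, had 0 counts over the Prdm16 group and 380 over the puro group. That is 124-fold lower with 3 counts put in the Prdm16 group. The filter kept Ptprz1 through puro libraries alone, so it could only be called lower. It belonged to the list but was named after its values were seen. Of 3 tested genes with an IGFBP-like domain, Kazald1 rose by 0.94 ± 0.14 (adjusted p = 0.000128; 0.55 with chromosome medians removed), Crim1 fell by 0.23 ± 0.04 (adjusted p = 0.00032) and Htra3 did not pass (0.01 ± 0.07, adjusted p = 0.906). With chromosome medians removed Htra3 stood at −0.17 with an adjusted p of 0.0401.

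**Figure D5:**
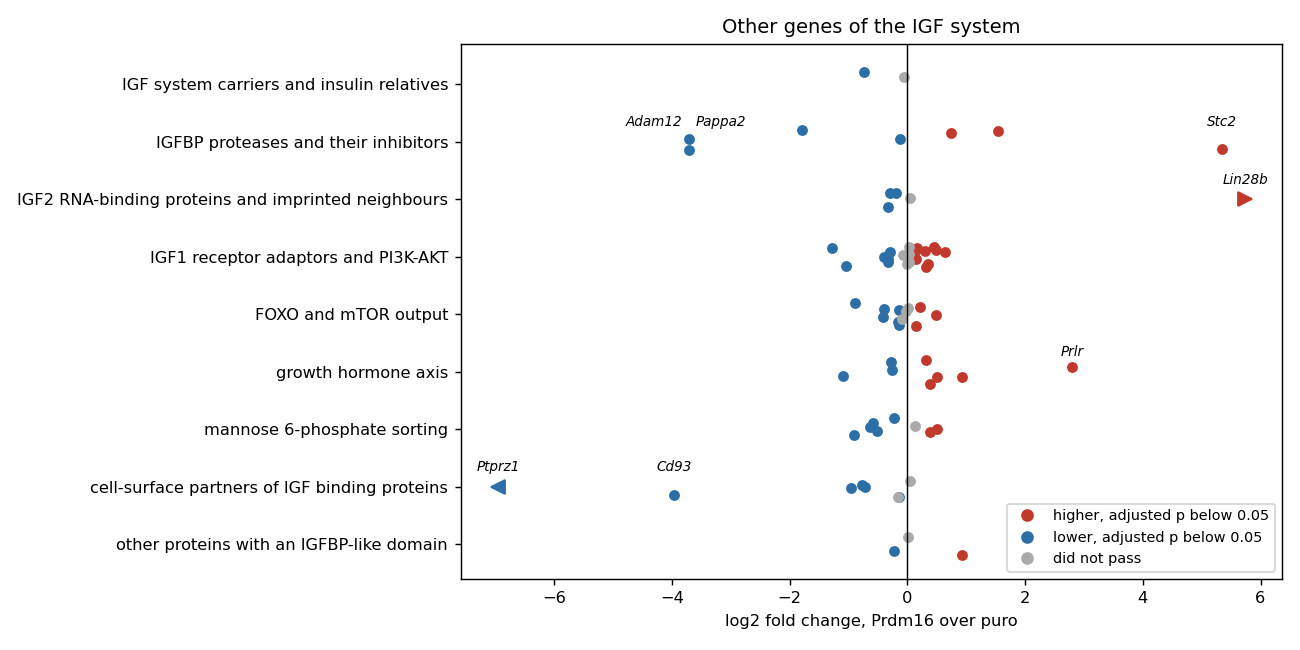
Log2 fold change, Prdm16 over puro, of each tested gene in 9 lists of other IGF pathway genes, coloured by call; triangles mark bounds for Lin28b and Ptprz1, which had 0 counts in 1 group. Large differences lie among the proteases and their inhibitors, and 6 of the 8 cell-surface partners were lower, beside 38% of all genes. The lists were chosen with earlier results known, so these shares only describe them.

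The genes most like each ligand were sought over the 6 libraries by the root mean square distance of log2 CPM, centred on each gene's mean. With only 2 groups this likeness is mostly the size of the group difference. Plat was nearest to Igf1 at a distance of 0.0338, followed by Slc37a2 at 0.054 and Serpinf1 at 0.0541, with log2 fold changes of −2.51, −2.61 and −2.48. Nearest to Igf2 were Pcp4l1 at 0.326 and F2rl1 and Ncam2 at 0.51 each, with log2 fold changes of 7.98, 8.87 and 9.23.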

How the data were processed

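Polyadenylated RNA of 6 libraries was sequenced after Trizol and PureLink extraction and an Illumina TruSeq kit, per the labels' protocols. The authors deposited 1 table of raw whole-number counts, 1 row per gene symbol. The submitters' processing notes name STAR, featureCounts, Subread and mm9, with no role or order. Versions, strand setting and the treatment of shared reads were not given in the sources used here. Groups came from the sample labels.

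In R 4.3.3, filterByExpr of edgeR 4.0.16 kept 13805 of 24197 genes, TMM scaled the libraries, and Prdm16 was set against puro in edgeR's quasi-likelihood fit (two-sided, Benjamini-Hochberg adjustment, 0.05). Transcript lengths and chromosomes came from GENCODE M21 and upstream sequences from RefSeq GRCm38.p6, matched by symbol, a build other than mm9. A fold against a group at 0 was bounded by putting 3 counts there, and list medians were the same with such genes at their bounds. The fitting was tested on simulated data in which few genes changed, as many up as down. That setting does not cover data where 75.6% of genes are called. Replicate libraries differed by a chi-square of 2.14 to 9.3 per gene, where sampling alone gives 1, and each was counted as 1 sample.

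Named genes were the 10 members, 15 genes set by name, up to 4 genes per list with the smallest p, and the 3 genes nearest to each ligand. Not every gene that this rule names is reported here. The members and lists were chosen with earlier results of these data known. Alternatives were upper-quartile and RLE scaling, keeping all genes, keeping genes that reach 1 CPM in 3 or more libraries, limma-voom (limma 3.58.1), DESeq2 1.42.0, a replicate block, Prdm16 left out of the counts, chromosome medians removed, other transcript lengths and each library left out in turn.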

Additional observations from a re-analysis of the deposited data

How the results depend on the processing

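Over all genes 10430 were called, and 9735 to 11149 under the alternatives, 9884 to 10444 as each library was left out. Pathway genes called higher numbered 25, and 21 to 25 as each library was left out, and those called lower 35, and 32 to 36. Same-numbered libraries deviated with correlations of −0.164, 0.0986 and −0.0674, so the numbers were not taken as pairs. With the replicate block 10089 genes were called, and 24 pathway genes were higher and 35 lower. The log2 difference of the summed binding proteins, −0.85, was −1.01 with chromosome medians removed and −0.51 with median transcript lengths, and −0.89 to −0.79 as each library was left out. Htra3, at 0.01 and not called, turned to −0.0090 with upper-quartile scaling and −0.17 with chromosome medians removed, where it was called lower (adjusted p = 0.0401), and ranged from −0.042 to 0.074 as each library was left out. Keeping genes that reach 1 CPM in 3 or more libraries removed Igfbp2 and Igfbp5. Over all members and alternatives, 138 values moved by less than 1 SD of log2 CPM between replicates, 10 moved by more and none turned sign. Among other named genes 689 values kept call and sign, 8 lost the call, 2 gained it and 5, all of Htra3, turned sign. Depth limits Igfbp2, Igfbp3 and puro Igf2, which rest on few counts in 1 group. The causes were not tested.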
